A study of Mus musculus with 7 samples.

Results

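The peptidyl arginine deiminases described here are the 4 family genes Padi1, Padi2, Padi3 and Padi4 (listed as PADI1, PADI2, PADI3 and PADI4), chosen by symbol from a table of 24353 genes measured in 7 libraries of mouse endometrial epithelial RNA. All 4 had a row, and all 4 passed the filter on low values (1 FPKM or more in any 1 library), as did 12314 genes in all. Padi3 passed only through the tamoxifen libraries, with and without alpelisib. FPKM counts fragments relative to transcript length and library size, so levels of different genes can be set side by side per length. The fifth family gene, Padi6, did not pass and is given by its values.

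The libraries came from C57BL/6 females whose ovaries had been removed at 6 to 7 weeks of age, so every group lacked ovarian estrogen. Tamoxifen plus alpelisib (2 libraries) combined tamoxifen at 0.5 mg per day under the skin with alpelisib, an inhibitor of the alpha form of the PI3K catalytic subunit, at 30 mg/kg per day by mouth. Tamoxifen (2 libraries) was given at the same dose alone, estradiol (2 libraries) from a pellet of 0.01 mg, and vehicle (1 library, labelled ED for estrogen deprivation) without hormone, each for 28 days. The titles number the mice 1 and 2 in the 3 treated groups. The sources used here do not give whether 1 mouse or a pool made the vehicle library, nor how epithelial cells were separated from the uterine horns that were collected. Vehicle has no replicate and no SD, and in the tests it was assumed to vary like the treated groups.

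Peptidyl arginine deiminases are calcium-dependent enzymes that convert arginine within proteins to citrulline, which removes a positive charge and can loosen protein folding and contacts. Padi1 and Padi3 are best known from stratified epithelium and hair follicles, where they act on keratins, filaggrin and trichohyalin. Padi2 is the most widely expressed member and has been described in brain, muscle, macrophages and secretory epithelium, and Padi4 is known from granulocytes, where it enters the nucleus and modifies histones. Estrogen is known to raise deiminase in rodent uterus, and in human breast cancer cells estradiol raises PADI4. Tamoxifen binds the estrogen receptor and stimulates the uterus while opposing estrogen in the breast.

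All 10 markers of endometrial epithelium passed the filter, and Epcam, the epithelial adhesion molecule, lay between 202 and 289 FPKM in the 7 libraries. Of the 10, 1 was called higher and 3 lower with tamoxifen against vehicle, where 14.9% of all genes were higher and 24.1% lower. With estradiol 1 was higher and 4 were lower (Cdh1, Krt8, Krt18 and Cldn4), where 22.7% of all genes were higher and 12.8% lower. Among the tamoxifen calls, Elf3 (higher) ended under 8 alternative settings, Cldn4 (lower) under 5, Cdh1 (lower) under 1 and Krt18 (lower) under 0. Of the estradiol calls, Ehf (higher), Cdh1 and Krt8 each ended under 4, and Krt18 and Cldn4 under 1, the 2-fold minimum aside. Stromal transcripts were present too, with the matrix proteoglycan gene Dcn at 144 FPKM in vehicle and 30.9 to 96.3 FPKM in the treated libraries. The sum of FPKM over all genes lay between 264322 and 403562 per library. Depth is not stated. In 6 libraries the lowest cluster of values among 3093 genes with 1 annotated transcript, read as a single fragment, put depth between 16200000 and 18700000 fragments, and estradiol library 2 had no clear cluster of this kind. On that reading the vehicle values rest on about 6487 fragments for Padi1, 622 for Padi2, 177 for Padi4 and 20.4 for Padi3. Fold changes below were computed on log2(FPKM + 1), which understates those of genes near 1 FPKM, and are given ± SE of a limma fit over all 7 libraries with p adjusted over the 12314 genes of each comparison. The 3 comparisons against vehicle share that 1 library.

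The 4 genes lie side by side on mouse chromosome 4 with Padi6, and their promoters differ in the motifs they hold. They are shown because the genes below fall into a pair higher with both estradiol and tamoxifen (Padi2 and Padi4) and a pair higher with tamoxifen but not called with estradiol (Padi1 and Padi3). Each RefSeq window (build GRCm38.p6) runs 5′ to 3′ from 250 bases before the annotated start to 50 after it. Padi1 is read from chr4:140845729-140846028 on the minus strand, Padi2 from chr4:140906110-140906409 on the plus strand, Padi3 from chr4:140810599-140810898 on the minus strand and Padi4 from chr4:140774154-140774453 on the minus strand. Capitals mark a match, on either strand, to 1 of 5 motifs. GGGCGG is the GC box, bound by Sp1 and Sp3. CCAAT is bound by NF-Y. The AP-1 site is TGACTCA, which reads as TGAGTCA on the other strand. TATAAA is the TATA box. The letters GGTCA are 1 arm of an estrogen response element.
Padi1: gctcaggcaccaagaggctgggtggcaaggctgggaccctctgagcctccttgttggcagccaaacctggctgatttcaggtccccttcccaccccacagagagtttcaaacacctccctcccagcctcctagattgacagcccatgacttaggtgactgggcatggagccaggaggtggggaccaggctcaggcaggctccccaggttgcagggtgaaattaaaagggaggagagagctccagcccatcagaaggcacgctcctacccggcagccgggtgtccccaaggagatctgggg
Padi2: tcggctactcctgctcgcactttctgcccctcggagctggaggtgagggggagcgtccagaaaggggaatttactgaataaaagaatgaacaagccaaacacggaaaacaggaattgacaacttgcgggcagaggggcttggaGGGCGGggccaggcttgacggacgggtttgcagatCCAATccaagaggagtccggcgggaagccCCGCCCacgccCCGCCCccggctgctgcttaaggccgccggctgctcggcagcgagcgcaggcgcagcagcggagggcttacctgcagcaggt
Padi3: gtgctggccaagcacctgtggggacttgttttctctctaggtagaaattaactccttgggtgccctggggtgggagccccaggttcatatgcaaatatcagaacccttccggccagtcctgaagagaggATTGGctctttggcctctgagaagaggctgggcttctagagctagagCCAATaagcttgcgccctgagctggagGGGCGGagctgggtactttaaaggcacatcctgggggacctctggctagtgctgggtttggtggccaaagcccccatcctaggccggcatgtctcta
Padi4: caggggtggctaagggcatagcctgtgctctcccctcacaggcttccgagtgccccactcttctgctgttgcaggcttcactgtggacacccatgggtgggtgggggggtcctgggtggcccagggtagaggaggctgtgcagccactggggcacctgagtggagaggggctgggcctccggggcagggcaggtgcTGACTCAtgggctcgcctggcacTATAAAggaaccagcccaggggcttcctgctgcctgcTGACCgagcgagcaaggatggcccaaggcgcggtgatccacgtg
No searched motif is in the Padi1 window. Padi2 holds 3 GC boxes, at 107, 43 and 32 bases before the start, and 1 CCAAT box at 72. Padi3 holds 1 GC box at 47 bases before the start and 2 CCAAT boxes, at 121 and 74. Padi4 holds an AP-1 site at 54 bases and a TATA box at 31 bases before the start, together with GGTCA on the opposite strand, beginning 6 bases past the start site. Of 32851 promoter windows in the same table, 35.7% hold the GC box, 37.4% the CCAAT box, 5.2% an AP-1 site, 13.6% the TATA box and 40.5% GGTCA. The full palindromic estrogen response element, GGTCA and its reverse complement with 3 bases between, is in 0.07% of them and in none of these 4. No searched motif marks the pair called with estradiol off from the other pair, since Padi2 and Padi4 share none of them. These are matches of letters in short windows, and no binding was measured.

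**Figure D1:**
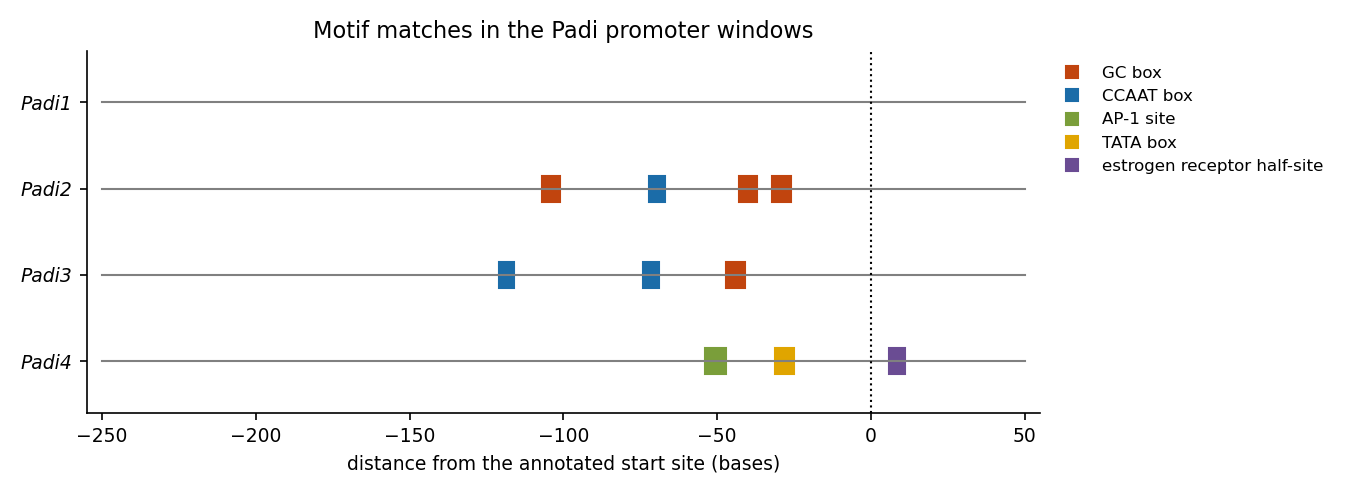
Positions of the motif matches in the 4 promoter windows, in bases from the annotated start site (dotted line), with 1 row per gene and 1 colour per motif. The Padi1 row is empty, Padi2 and Padi3 carry GC and CCAAT boxes, and Padi4 carries an AP-1 site, a TATA box and 1 arm of an estrogen response element.

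Padi2, the most widely expressed member, had the highest log2 fold change of the 4 with tamoxifen. It had 370.0 and 357 FPKM with tamoxifen plus alpelisib, 639.9 and 544 with tamoxifen, 32.4 and 51.5 with estradiol, and 6.96 in vehicle. The 4 groups did not overlap, and the vehicle library was the lowest. Against vehicle, Padi2 rose 85.1-fold in mean FPKM with tamoxifen (log2 fold change 6.21 ± 0.30, adjusted p = 8.15e-05), the 14th largest log2 fold change of all genes tested. With estradiol it rose 6.03-fold (2.40 ± 0.30, adjusted p = 0.00272), and with tamoxifen plus alpelisib 52.3-fold (5.52 ± 0.30, adjusted p = 0.000116). Its place among all genes of a library, counted from the highest FPKM, was 168 and 175 with tamoxifen plus alpelisib, 81 and 129 with tamoxifen, 1552 and 793 with estradiol, and 5326 in vehicle.

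Padi4, the nuclear member, had 71.7 and 85.0 FPKM with tamoxifen plus alpelisib, 91.9 and 121 with tamoxifen, 41.6 and 40.4 with estradiol, and 4.08 in vehicle. Every treated library was far above the vehicle library, and the estradiol libraries lay between it and the tamoxifen libraries. Padi4 rose 26.0-fold with tamoxifen against vehicle (4.39 ± 0.22, adjusted p = 8.88e-05) and 10.0-fold with estradiol (3.05 ± 0.22, adjusted p = 0.000605). With tamoxifen plus alpelisib it rose 19.2-fold (3.96 ± 0.22, adjusted p = 0.000130). Among the 4 members Padi4 had the highest log2 fold change with estradiol, whereas Padi2 had the highest with tamoxifen.

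Padi1, a deiminase of keratinizing epithelium, was already abundant without hormone. It had 467 and 492 FPKM with tamoxifen plus alpelisib, 678 and 771 with tamoxifen, 75.9 and 72.6 with estradiol, and 92.3 in vehicle. The estradiol libraries were slightly below the vehicle library, and the tamoxifen libraries, with or without alpelisib, were far above both. Against vehicle, Padi1 rose 7.85-fold with tamoxifen (2.96 ± 0.22, adjusted p = 0.000284) and 5.20-fold with tamoxifen plus alpelisib (2.36 ± 0.22, adjusted p = 0.000708). Estradiol gave a log2 fold change of -0.31 ± 0.22 (adjusted p = 0.307, unadjusted 95% interval -0.84 to 0.22), so a change within that interval cannot be told from none.

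Padi3, which acts on trichohyalin and filaggrin in hair follicle and epidermis, was the scarcest of the 4. It had 3.21 and 3.39 FPKM with tamoxifen plus alpelisib, 3.04 and 5.87 with tamoxifen, 0.148 and 0.0548 with estradiol, and 0.329 in vehicle. The 4 libraries with tamoxifen were above the other 3, which were all under 1 FPKM. Padi3 rose against vehicle with tamoxifen (1.99 ± 0.30, adjusted p = 0.00383) and with tamoxifen plus alpelisib (1.69 ± 0.30, adjusted p = 0.00812), and mean FPKM was 13.5-fold and 10.0-fold that of vehicle. The second of these calls ended without the filter on low values (adjusted p = 0.0668). With a pseudocount of 0.1 the log2 fold changes were 3.34 with tamoxifen and 2.99 with tamoxifen plus alpelisib. Estradiol gave -0.27 ± 0.30 (adjusted p = 0.522, unadjusted 95% interval -1.01 to 0.47), at levels of about 8.3 fragments in estradiol library 1 and 20.4 in vehicle.

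Padi6, known from oocytes and early embryos, was listed at 0.0481 and 0.0527 FPKM with tamoxifen, about 2.0 fragments each, and at 0 in the 2 libraries with tamoxifen plus alpelisib, the 2 with estradiol and the vehicle library.

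**Figure D2:**
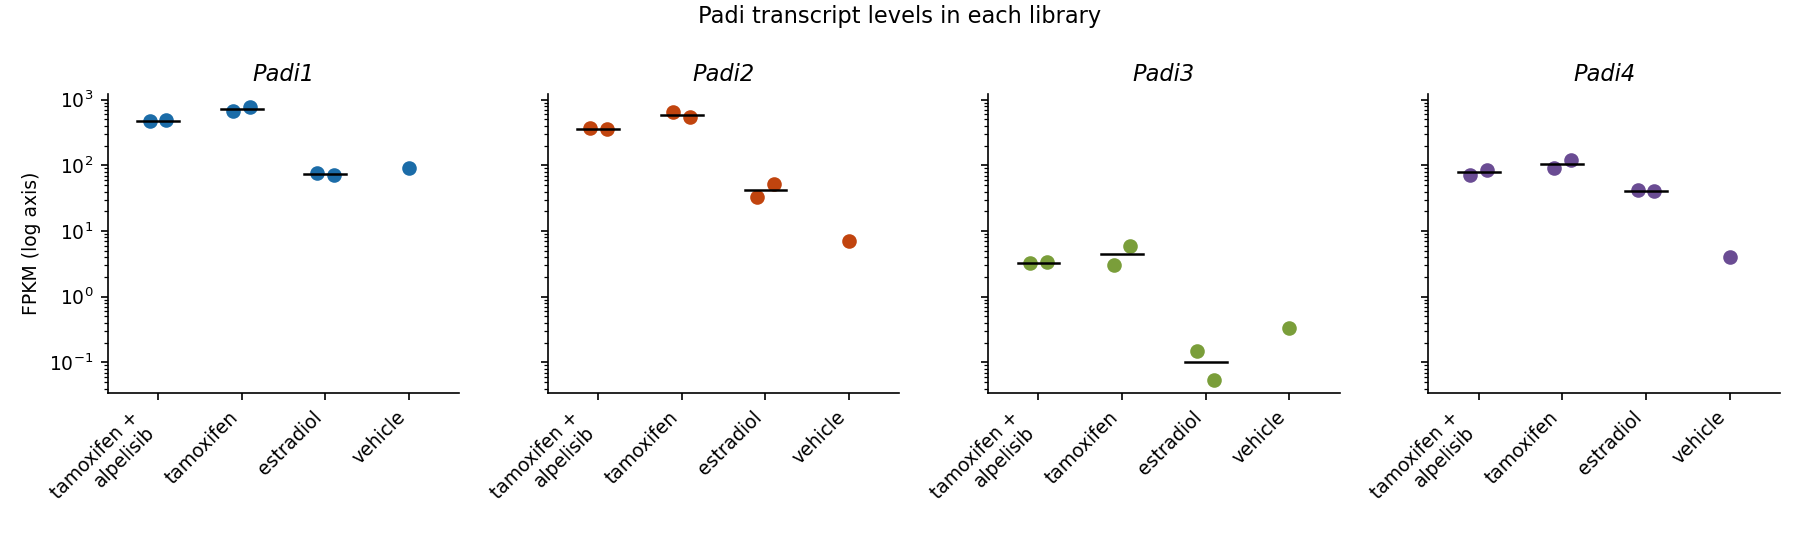
FPKM of each Padi gene (log axis) by group, with 1 point per library and a line at the mean of each group of 2. The 4 tamoxifen libraries, with and without alpelisib, lie above the estradiol and vehicle points for all 4 genes, and the estradiol points lie above vehicle for Padi2 and Padi4 alone.

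Read together, all 4 members rose with tamoxifen against vehicle, where 39.0% of all genes tested were called, 14.9% higher and 24.1% lower (1838 and 2969 genes, or 2497 and 2525 after median-of-ratios scaling). With tamoxifen plus alpelisib all 4 rose as well, where 34.9% of genes were called, 13.1% higher and 21.8% lower (1619 and 2680, or 2226 and 2122 after that scaling). Both counts include Padi3, which passed the filter only through libraries that received tamoxifen. Without the filter its adjusted p was 0.0436 with tamoxifen and 0.0668 with tamoxifen plus alpelisib. With estradiol 2 of 4 rose, Padi2 and Padi4, and 0 fell, where 35.5% of genes were called, 22.7% higher and 12.8% lower (2793 and 1573, or 2109 and 2250). Over all genes the median log2 fold change was -0.12 for tamoxifen, -0.15 for tamoxifen plus alpelisib and 0.12 for estradiol, each against vehicle, and median-of-ratios scaling moved these to 0.02, 0.00 and 0.00. Relative to those medians the member log2 fold changes were 2.11 to 6.34 with tamoxifen and 1.84 to 5.66 with tamoxifen plus alpelisib. With estradiol they were -0.43 for Padi1, 2.27 for Padi2, -0.39 for Padi3 and 2.93 for Padi4.

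**Figure D3:**
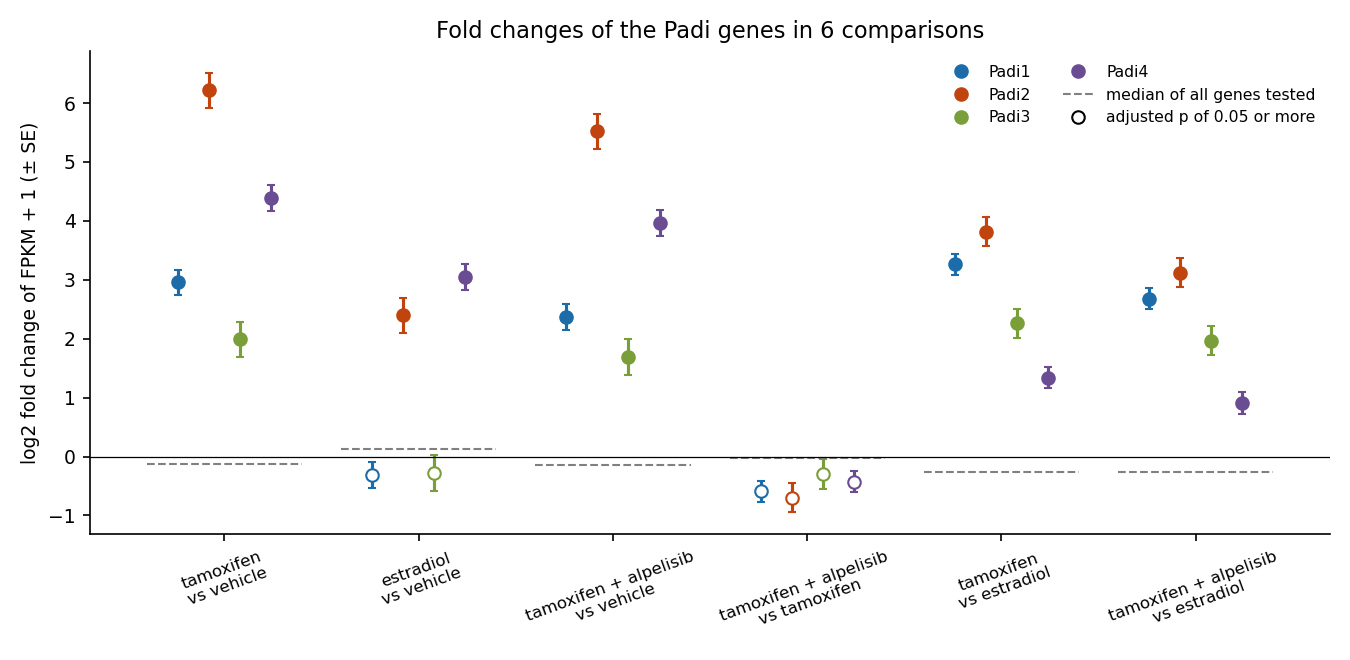
Log2 fold change of FPKM + 1 (± SE, limma) of the 4 Padi genes in the 6 comparisons, with filled points for an adjusted p under 0.05 and a dashed line at the median of all genes tested. Points are filled in every comparison of tamoxifen, with or without alpelisib, against vehicle or estradiol, and for Padi2 and Padi4 alone in estradiol against vehicle.

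Tamoxifen gave higher levels of every member than estradiol did. In tamoxifen libraries Padi1 averaged 725 ± 65.8 FPKM, against 74.3 ± 2.37 in estradiol libraries (SD, n = 2 each), a log2 fold change of 3.27 ± 0.18 (adjusted p = 0.000118). For Padi2 the means were 592 ± 68.1 with tamoxifen and 42.0 ± 13.5 with estradiol (3.82 ± 0.25, adjusted p = 0.000198). Padi4, with means of 106 ± 20.2 and 41.0 ± 0.869, differed least, by 1.34 ± 0.18 (adjusted p = 0.00207). Padi3 stood 2.26 ± 0.25 higher with tamoxifen (adjusted p = 0.000978), or 4.47 with a pseudocount of 0.1. The count of 4 of 4 members higher stands beside 48.5% of all genes called in this comparison, 12.3% higher and 36.2% lower (1519 and 4458, or 2950 and 2684 after median-of-ratios scaling). That count includes Padi3, which passed the filter only through libraries that received tamoxifen. The median of all genes was -0.26, and 0.01 after that scaling.

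Tamoxifen plus alpelisib was also above estradiol for all 4 members, where 53.2% of genes were called, 15.7% higher and 37.5% lower (1935 and 4613, or 3360 and 3027 after median-of-ratios scaling, which moved the median of all genes from -0.26 to 0.01). The log2 fold changes were 2.68 ± 0.18 for Padi1, 3.12 ± 0.25 for Padi2 and 1.96 ± 0.25 for Padi3, with adjusted p of 0.000179, 0.000291 and 0.00131. For Padi3, which passed the filter only through libraries that received tamoxifen, it was 4.11 with a pseudocount of 0.1. Padi4 averaged 78.4 ± 9.43 FPKM with tamoxifen plus alpelisib and 41.0 ± 0.869 with estradiol (SD, n = 2 each; log2 0.91 ± 0.18, adjusted p = 0.00682). That call ended without tamoxifen plus alpelisib library 2 (adjusted p = 0.0685), and the difference lies under the 2-fold minimum of another alternative.

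Whether PI3K alpha inhibition changes these levels under tamoxifen is the question of the comparison within tamoxifen treatment. For 3 of the 4 members, both libraries with alpelisib were below both libraries with tamoxifen alone, as they were for 34.3% of all genes tested. Of the 4, 0 were called by limma and 2 had an unadjusted p under 0.05. In this comparison 11.7% of all genes were called, 6.93% higher and 4.81% lower. Padi1 averaged 479.7 ± 17.3 FPKM with tamoxifen plus alpelisib and 725 ± 65.8 with tamoxifen (SD, n = 2 each), a log2 fold change of -0.59 ± 0.18 (adjusted p = 0.0850, unadjusted 95% interval -1.02 to -0.16). Padi2 averaged 364 ± 9.11 with tamoxifen plus alpelisib and 592 ± 68.1 with tamoxifen (-0.70 ± 0.25, adjusted p = 0.122, interval -1.29 to -0.10).

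Padi4 and Padi3 lay nearer to no difference. Padi4 gave -0.43 ± 0.18 (adjusted p = 0.182, interval -0.87 to 0.01). Padi3 gave -0.29 ± 0.25 (adjusted p = 0.490, interval -0.90 to 0.31), its groups overlapped, and the sign turned without tamoxifen library 2 (0.087). Padi1 and Padi2 passed under some alternatives. Padi1 was called after median-of-ratios scaling (adjusted p = 0.0425) and after quantile normalization (0.0176), within a range of 0.0176 to 0.444 over the alternatives. Padi2 was called with only the 2 groups in the fit (0.0474) and without estradiol library 1 or 2 (0.0433 and 0.0435), within a range of 0.0433 to 0.447.

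The make-up of the family differed between groups. Summed over the 4 genes, the level was 912 and 937 FPKM with tamoxifen plus alpelisib, 1413 and 1441 with tamoxifen, 150.2 and 165 with estradiol, and 104 in vehicle. Padi1 held 51.2% and 52.5% of that sum with tamoxifen plus alpelisib, 48.0% and 53.5% with tamoxifen, 50.6% and 44.1% with estradiol, and 89.0% in vehicle. Padi1 thus had its largest share in the vehicle library.

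Padi2 held 40.6% and 38.1% with tamoxifen plus alpelisib, 45.3% and 37.7% with tamoxifen, 21.6% and 31.3% with estradiol, and 6.71% in vehicle. Padi4 held 7.86% and 9.07% with tamoxifen plus alpelisib, 6.51% and 8.37% with tamoxifen, 27.7% and 24.6% with estradiol, and 3.94% in vehicle. Its share was thus highest with estradiol. Padi3 stayed under 1% in each library, with 0.407% as its highest share. These shares are descriptions of FPKM in each library and were not tested.

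**Figure D4:**
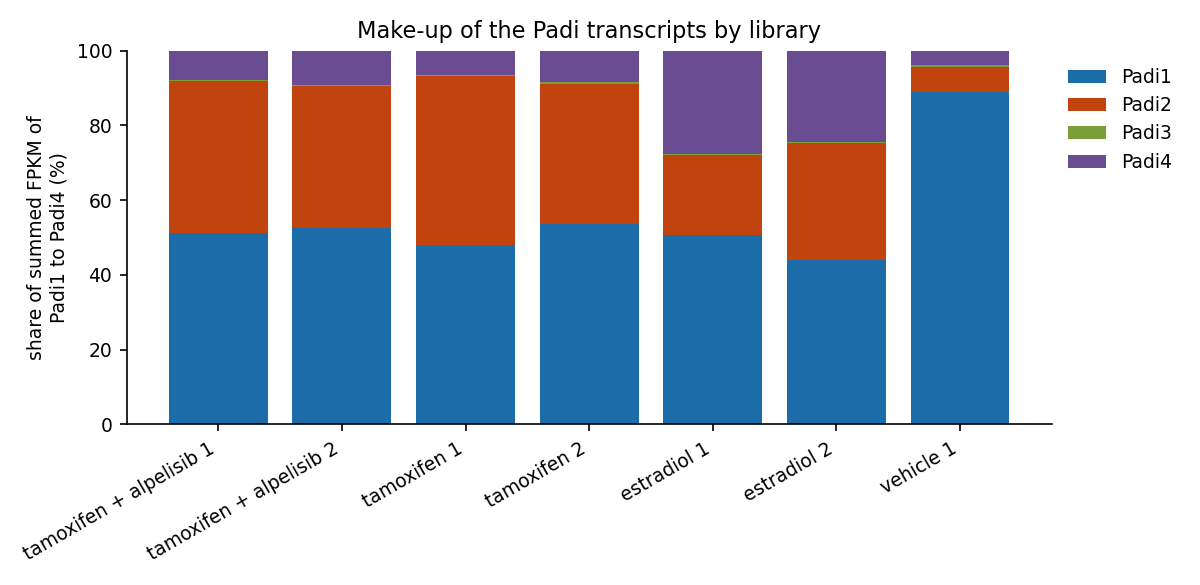
Share of the summed FPKM of Padi1 to Padi4 held by each gene, in percent, with 1 stacked bar per library. Padi1 takes 89.0% in vehicle and 44.1% to 53.5% elsewhere, and the Padi4 segment is widest in the estradiol libraries, at 27.7% and 24.6%.

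The genes around the cluster allow a look at whether the whole neighbourhood moved. In RefSeq order the cluster runs Padi6, Padi4, Padi3, Padi1 and Padi2, and the nearest 5 tested genes on each side were taken, among them Gm13031, which overlaps Padi2 on the opposite strand. With tamoxifen against vehicle 4 of these 10 rose, Gm13031 included, and 2 fell, where 14.9% of all genes were higher and 24.1% lower. Their log2 fold changes ran from -3.43 (Iffo2) to 2.15 (Crocc). With estradiol 3 rose and 2 fell, where 22.7% of all genes were higher and 12.8% lower, and Rcc2, a mitotic chromatin factor and the neighbour next to Padi6, rose by 1.57 ± 0.16 (adjusted p = 0.00131). With tamoxifen Rcc2 was lower than in vehicle, by -0.64 ± 0.16 (adjusted p = 0.0206), a call that ended under 6 alternatives, median-of-ratios scaling among them. Sdhb, a subunit of succinate dehydrogenase beyond Padi2, had log2 fold changes of 0.69 ± 0.19 with tamoxifen and 0.00 ± 0.19 with estradiol (adjusted p = 0.0274 and 0.993). Its tamoxifen call ended without any 1 of the 4 libraries that received tamoxifen. Crocc, a ciliary rootlet protein gene, had 29.8 and 27.5 FPKM with tamoxifen plus alpelisib, 28.7 and 38.0 with tamoxifen, 6.34 and 6.93 with estradiol, and 6.66 in vehicle. Its fitted rise with tamoxifen was 2.15 ± 0.20 (adjusted p = 0.000671).

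Genes annotated on the opposite strand overlap both of the most abundant members. In GENCODE, Gm13032 lies on the strand opposite Padi1 and overlaps it, and Gm13031 lies opposite Padi2. Gm13032 had 188 and 187 FPKM with tamoxifen plus alpelisib, 291 and 315 with tamoxifen, 27.1 and 19.7 with estradiol, and 38.8 in vehicle. It thus moved with Padi1, by 2.93 ± 0.23 with tamoxifen against vehicle (adjusted p = 0.000362). Gm13031 did not exceed 1.29 FPKM in any library. The sources used here do not say whether fragments were assigned by strand, so fragments of Gm13032 and of Padi1 cannot be told apart.

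**Figure D5:**
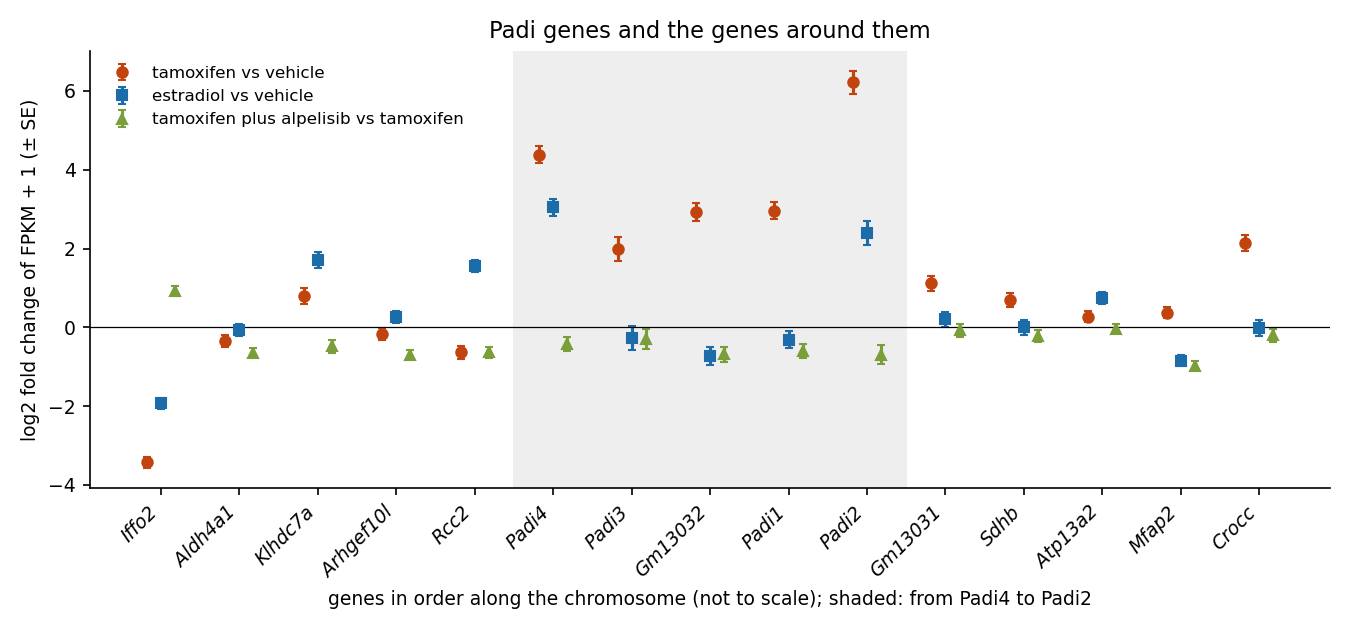
Log2 fold change of FPKM + 1 (± SE, limma) for the tested genes in order along the chromosome, evenly spaced, in 3 comparisons, with the stretch from Padi4 to Padi2 shaded. All 5 shaded genes lie above 1.9 for tamoxifen against vehicle, while the 10 flanking genes lie between -3.43 and 2.15.

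The genes most like each member in profile were sought among 8157 tested genes with a highest FPKM of at least 5. Genes named only as predicted models or clones, Gm13032 among them, and names turned into dates were left out. Likeness was the root mean square difference of log2(FPKM + 1) over the 7 libraries after each gene was centred on its own mean. This is a description over libraries that fall into 4 groups. Nearest to Padi1 were the carbonyl reductase gene Cbr3 (0.10), Klk1b7-ps (0.12), Ppm1j (0.22) and Rims4 (0.25). Cbr3 had 29.9 and 35.2 FPKM with tamoxifen plus alpelisib, 48.6 and 54.4 with tamoxifen, 4.49 and 3.69 with estradiol, and 4.68 in vehicle. Nearest to Padi4 were the membrane serine protease gene Tmprss4 (0.14), Mogat2 (0.21), Naip1 (0.22), Fer1l4 (0.27) and Prom1 (0.30). Tmprss4 had 60.1 and 62.4 FPKM with tamoxifen plus alpelisib, 85.6 and 84.5 with tamoxifen, 32.2 and 27.4 with estradiol, and 2.80 in vehicle.

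Padi2 had no neighbour as close. Its nearest were the carbonic anhydrase gene Car12 (0.31), Hgfac (0.35), Tmprss11g (0.38), the adenosine deaminase gene Ada (0.39) and Fam3b (0.40). Nearest to Padi3 were Crocc (0.16), the receptor gene Mst1r (0.18), Mark1 (0.19), the simple epithelial keratin gene Krt7 (0.20) and Prdx5 (0.21). Crocc is thus both a chromosomal neighbour of the cluster and, on this scale, the nearest profile to Padi3. Adding 1 to FPKM compresses the changes of Padi3, which was under 1 FPKM with estradiol and in vehicle. With tamoxifen against vehicle the log2 fold changes were 1.99 for Padi3 and 2.15 for Crocc. That of Padi3 was 3.34 with a pseudocount of 0.1. Between members the difference was 0.46 for Padi1 and Padi3, a little above the 0.40 of Padi2 and Fam3b. It was 1.03 to 1.43 for the other 5 pairs, whose likeness was thus far lower.

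Other genes known to rise with estrogen in rodent uterus behaved in part like Padi2 and Padi4. Of 13 tested, 8 rose and 2 fell with tamoxifen against vehicle, where 14.9% of all genes were higher and 24.1% lower. The list median was 2.07 beside -0.12 over all genes. With estradiol 8 rose and 2 fell, where 22.7% of all genes were higher and 12.8% lower, with a median of 1.32 beside 0.12. Complement factor Cfb rose by 5.25 ± 0.23 with tamoxifen and 3.72 ± 0.23 with estradiol, and the secretory iron-binding protein gene Ltf by 4.92 ± 0.30 and 4.08 ± 0.30 (adjusted p = 6.35e-05, 0.000422, 0.000148 and 0.00064). The progesterone receptor gene Pgr rose with estradiol (1.28 ± 0.15, adjusted p = 0.00204) and had -0.01 ± 0.15 with tamoxifen (adjusted p = 0.977). Aqp5, a water channel gene, rose with tamoxifen (2.07 ± 0.26, adjusted p = 0.00199) and fell with estradiol (-1.75 ± 0.26, adjusted p = 0.00486). The cyclin gene Ccnd1 fell with tamoxifen (-2.45 ± 0.19, adjusted p = 0.000324) and with estradiol (-1.21 ± 0.19, adjusted p = 0.0055). Mcm2, a DNA replication gene, fell with tamoxifen (-1.01 ± 0.15, adjusted p = 0.00368) and rose with estradiol (1.02 ± 0.15, adjusted p = 0.00482). With tamoxifen plus alpelisib against tamoxifen 0 of the 13 rose and 1 fell, where 6.93% of all genes were higher and 4.81% lower.

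Factors described at PADI genes, mostly in human cells, were followed by 13 genes, of which 11 passed the filter. The estrogen receptor alpha gene Esr1 had 21.2 and 22.7 FPKM with tamoxifen plus alpelisib, 22.4 and 20.6 with tamoxifen, 31.5 and 53.5 with estradiol, and 30.0 in vehicle. It was not called against vehicle with tamoxifen or estradiol (adjusted p = 0.267 and 0.292), and Esr2 did not exceed 0.0358 FPKM. With tamoxifen against vehicle 1 of the 11 rose and 3 fell, where 14.9% of all genes were higher and 24.1% lower. With estradiol 2 rose and 2 fell, where 22.7% were higher and 12.8% lower. The NF-Y subunit genes did not share a direction. Nfya rose in both, by 1.54 ± 0.17 with tamoxifen (adjusted p = 0.00123) and 1.77 ± 0.17 with estradiol (adjusted p = 0.00123). Nfyb was lower in both, at -0.74 ± 0.17 with tamoxifen and -0.56 ± 0.17 with estradiol (adjusted p = 0.0154 and 0.0424). Those Nfyb calls ended under 2 and 8 alternatives, the 2-fold minimum aside. Nfyc was not called in either (adjusted p = 0.210 and 0.827). The NF-kappa B subunit gene Rela had 19.0 and 26.0 FPKM with tamoxifen, 28.3 and 27.2 with estradiol and 80.2 in vehicle, and fell in both (adjusted p = 0.00161 and 0.00434). Sp1 and Sp3, which bind GC boxes, had log2 fold changes of -0.31 and -0.14 with tamoxifen and did not pass (adjusted p = 0.213 and 0.508).

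Transcripts of proteins that deiminases are known to citrullinate did not share a direction. Of 22 tested, 3 rose and 7 fell with tamoxifen against vehicle, where 14.9% of all genes were higher and 24.1% lower. The list median was -0.35 beside -0.12 over all genes. With estradiol 5 rose and 1 fell, where 22.7% of all genes were higher and 12.8% lower, with a median of 0.20 beside 0.12. The intermediate filament gene Vim, a classic substrate and also a stromal marker, had 17.0 and 18.3 FPKM with tamoxifen plus alpelisib, 6.09 and 8.11 with tamoxifen, 38.5 and 36.3 with estradiol, and 51.7 in vehicle. It was lowest where Padi2 was highest. The neutrophil-attracting chemokine gene Cxcl5 had 18.1 and 17.7 FPKM with tamoxifen plus alpelisib, 0.497 and 0.786 with tamoxifen, 20.5 and 15.4 with estradiol, and 0.468 in vehicle, and so was low with tamoxifen alone, where all 4 members were highest on average. The trichohyalin gene Tchh, the substrate of Padi3, did not exceed 0.207 FPKM.

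Cells other than endometrial epithelium could carry these transcripts, and in bulk RNA fewer cells of a type and less RNA per cell cannot be told apart. Of 13 neutrophil markers, the cell type best known for Padi4, 3 passed the filter, and the granule genes Elane and Ctsg were at 0 in all 7 libraries. Mpo did not exceed 0.0242 FPKM and Csf3r, the receptor for granulocyte colony-stimulating factor, 0.424. The neutrophil list summed to 49.0 and 52.6 FPKM with tamoxifen plus alpelisib, 5.34 and 8.78 with tamoxifen, 9.21 and 4.56 with estradiol, and 0.758 in vehicle. With alpelisib the sum was mostly S100a9, at 40.2 and 43.2 FPKM. S100a8 had 6.98 and 7.37 FPKM with tamoxifen plus alpelisib, 2.50 and 3.58 with estradiol, and 0 with tamoxifen and in vehicle, and rose with estradiol against vehicle (adjusted p = 0.00129). Against vehicle, 0 of the 3 tested rose with tamoxifen, 1 with estradiol and 2 with tamoxifen plus alpelisib, where 14.9%, 22.7% and 13.1% of all genes were higher. With tamoxifen plus alpelisib S100a8 rose by 3.03 ± 0.20 and S100a9 by 4.95 ± 0.65 (adjusted p = 0.000226 and 0.00273). The surface marker gene Ly6g was above its vehicle level in all 6 treated libraries, as Padi4 was. It had 1.53 and 1.70 FPKM with tamoxifen plus alpelisib, 2.28 and 2.10 with tamoxifen, 4.11 and 0.545 with estradiol, and 0.144 in vehicle, and was not called against vehicle (adjusted p = 0.104 with tamoxifen and 0.147 with estradiol). The part of neutrophils in the level of Padi4 was not tested. The 6 eosinophil markers were at 0 except Siglecf, at 0.0685 FPKM in estradiol library 2.

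Padi2 occurs in macrophages and mast cells, whose 11 markers summed to 125 and 124 FPKM with tamoxifen plus alpelisib, 51.1 and 63.6 with tamoxifen, 116 and 85.2 with estradiol, and 50.8 in vehicle, most of it Cd14 and Cd68. Of the 7 tested, 1 rose and 2 fell with tamoxifen against vehicle, where 14.9% of all genes were higher and 24.1% lower. With estradiol 4 rose and 1 fell, where 22.7% were higher and 12.8% lower. Like Padi2, the macrophage gene Cd68 rose with tamoxifen (0.93 ± 0.28, adjusted p = 0.0429), a call that ended under 5 alternatives. Cd14 rose with estradiol (1.45 ± 0.22, adjusted p = 0.00468) and with tamoxifen plus alpelisib (2.26 ± 0.22, adjusted p = 0.000815). Unlike Padi2, Lyz2 fell with tamoxifen (-2.31 ± 0.43, adjusted p = 0.00774), as did the mast cell protease gene Tpsb2 (-1.26 ± 0.14, adjusted p = 0.00133). Kit, a receptor of mast cells, rose with estradiol (2.41 ± 0.20, adjusted p = 0.000785), as did the macrophage gene Adgre1 (1.57 ± 0.21, adjusted p = 0.00316). The mast cell proteases Cpa3, Cma1 and Mcpt4 were at 0 in all treated libraries and between 0.510 and 0.976 FPKM in vehicle. The part of macrophages and mast cells in the level of Padi2 was not tested. The 7 lymphocyte markers summed to at most 2.34 FPKM.

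Padi1 and Padi3 belong to squamous epithelium. Of 8 tested keratinocyte markers, 4 rose and 1 fell with tamoxifen against vehicle, where 14.9% of all genes were higher and 24.1% lower. With estradiol 3 rose and 1 fell, where 22.7% were higher and 12.8% lower. The list summed to 591 and 604 FPKM with tamoxifen plus alpelisib, 384 and 341 with tamoxifen, 153 and 154 with estradiol, and 52.3 in vehicle. Krt5, a keratin of basal layers, rose by 4.06 ± 0.20 with tamoxifen and 2.10 ± 0.20 with estradiol (adjusted p = 8.44e-05 and 0.00118), whereas Padi1 was not called with estradiol. Krt14 rose by 2.59 ± 0.14 with tamoxifen plus alpelisib against tamoxifen (adjusted p = 0.00156), where the Padi1 libraries were lower. The cornified envelope gene Lor fell with tamoxifen against vehicle (-3.44 ± 0.31, adjusted p = 0.000536). The part of squamous cells in the levels of Padi1 and Padi3 was not tested.

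Stromal and muscle markers were mostly lower in the treated groups than in vehicle. With tamoxifen 11 of 11 fell and 0 rose, where 24.1% of all genes were lower and 14.9% higher. With tamoxifen plus alpelisib 11 fell and 0 rose, where 21.8% were lower and 13.1% higher. With estradiol 8 fell and 1 rose, where 12.8% were lower and 22.7% higher. The list summed to 101 and 107 FPKM with tamoxifen plus alpelisib, 54.3 and 52.3 with tamoxifen, 134 and 119 with estradiol, and 242 in vehicle. The 5 endothelial markers summed to at most 1.23 FPKM in the tamoxifen libraries, with or without alpelisib, 6.73 and 5.26 with estradiol, and 9.16 in vehicle. The epithelial list summed to 5954 and 6427 with tamoxifen plus alpelisib, 3968 and 5500.2 with tamoxifen, 3144 and 2682 with estradiol, and 7024 in vehicle. The part of these cell markers in the comparisons against vehicle was not tested.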

How the data were processed

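RNA of endometrial epithelial cells was sequenced as 7 libraries in 4 groups. CASAVA, Bowtie and Cufflinks are named, without versions, in the submitters' processing notes, and the only build named there is hg19, although the gene symbols are those of mouse, so genomic positions are given only for the RefSeq promoter windows. The unit of the deposited table was taken to be FPKM from the named tools and the values. Of its 24353 symbols, 23292 matched the RefSeq gene table.

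Genes reaching 1 FPKM in any library (12314) were tested with limma 3.58.1 in R 4.3.3 (trend, log2(FPKM + 1), 4 group means, 3 residual degrees of freedom plus 3.27 from the prior), with Benjamini-Hochberg adjustment within each comparison and a threshold of 0.05. The method was tested on simulated data. The members, lists and rule for named genes (all members, up to 4 of lowest p per list, 5 tested genes on each side of the cluster, 5 nearest profiles per member) were chosen with earlier results of these data known. One gene that the rule names is not reported here. Defining markers and some genes outside that rule are named for contrast. Alternatives were median-of-ratios and quantile scaling, no filter or a filter in 2 libraries, robust empirical Bayes, a pseudocount of 0.1, a 2-fold minimum, only the compared groups, each replicate left out, and a replicate block. P-values rest on the spread between libraries of the same treated group, pooled over those groups and with the prior. Vehicle, with 1 library, adds none, so they do not measure the spread of each pair of groups compared.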

Additional observations from a re-analysis of the deposited data

How the results depend on the processing

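Every member kept its direction in all 6 comparisons under every alternative, except Padi3 in tamoxifen plus alpelisib against tamoxifen (-0.29 with all libraries), which ran from -0.68 to 0.087 with a replicate left out and turned positive (0.087) without tamoxifen library 2. Padi3 was not tested in estradiol against vehicle with only those groups in the fit, since it stayed under the filter. The number of members called was unchanged or within 1.5 times in 5 comparisons. In tamoxifen plus alpelisib against tamoxifen it was 0, and became 1 with median-of-ratios size factors, 1 with quantile normalization and 1 with only the compared groups, and 0 to 1 with a replicate left out. The cause was not tested. Leaving out 1 library of tamoxifen plus alpelisib left 14 or 18 calls over all genes there, against 1445 with all 7, and without tamoxifen library 1 or 2 it was 301 or 692. No filter gave 575 calls there. A 2-fold minimum cut the calls over all genes to between 555 and 2954 per comparison, against 1445 to 6548, and with only the compared groups estradiol against vehicle had 1597 (4366 in the full fit) and tamoxifen plus alpelisib against vehicle 6985 (4299). Without either tamoxifen plus alpelisib library, comparisons of that group with vehicle and estradiol and of estradiol with vehicle had between 1900 and 3936 calls. With mouse number as a replicate block, 0, 4 and 4 members were called in tamoxifen plus alpelisib against tamoxifen, tamoxifen against estradiol and tamoxifen plus alpelisib against estradiol, as without it; the block could not be fitted against vehicle, which has 1 library. The first of these had 603 calls over all genes with the block. Deviations of same-numbered libraries correlated at 0.27 between tamoxifen plus alpelisib and tamoxifen, -0.40 between tamoxifen and estradiol and -0.18 between tamoxifen plus alpelisib and estradiol, so the numbers were not taken to pair the libraries. Depth limits Padi3 in estradiol and vehicle, and Padi6 in all libraries.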

Other observations

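Protein arginine methyltransferases also modify arginine within proteins. Of 8 tested, 2 rose and 1 fell with tamoxifen against vehicle, where 14.9% of all genes were higher and 24.1% lower. With estradiol against vehicle 2 rose and 0 fell, where 22.7% were higher and 12.8% lower. Prmt7 rose by 0.87 ± 0.15 with tamoxifen (adjusted p = 0.00527) and Prmt9 by 0.84 ± 0.22 (adjusted p = 0.0259, a call that ended without tamoxifen library 1 and without the filter). Prmt2 fell by 0.94 on the log2 scale (SE 0.18, adjusted p = 0.0081). Prmt5, the main enzyme of symmetric dimethylation, had 6.70 and 6.82 FPKM with tamoxifen plus alpelisib, 11.7 and 10.5 with tamoxifen, 22.2 and 21.1 with estradiol, and 10.98 in vehicle. It was lower with tamoxifen than with estradiol (-0.91 ± 0.12, adjusted p = 0.00214). With tamoxifen plus alpelisib against tamoxifen 1 of the 8 rose and 4 fell, where 6.93% of all genes were higher and 4.81% lower. The calls of Prmt2, Prmt3, Prmt5 and Prmt9 ended whichever of the 4 libraries of that comparison was left out. Prmt8 was at 0 in all 7 libraries.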
